A study of Mus musculus with 6 samples.

Results

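The genes described here encode the subunits of the Kv1 family of voltage-gated potassium channels. They are the alpha subunit genes *Kcna1*, *Kcna2*, *Kcna3*, *Kcna4*, *Kcna5* and *Kcna6* and the beta subunit genes *Kcnab1*, *Kcnab2* and *Kcnab3*, chosen by name, 9 of the 50508 gene symbols in the deposited files. Primary mouse neurons received a lentivirus at 1 day in culture, and their RNA was compared between cells carrying Ctrl-dCas9A, with the control guide sgLacZ, and cells carrying Kcna1-dCas9A, with the guide sg19 (labelled sgKcna1), with 3 libraries each. Both groups carried dCas9, a Cas9 that binds DNA without cutting it, joined to the activation domain VP160. It was driven by the Ef1alpha promoter, which is not restricted to neurons, and the vectors of the groups differed by design in the guide. The cultures came from newborn C57Bl/6J pups, and the labels name hippocampus where the study's methods name cortex. The methods also give differing culture times before the RNA was taken. Nothing in the labels says whether the 3 libraries of a group came from separate cultures, and p-values therefore measure the spread between these libraries, which may be technical.

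In a Kv1 channel, alpha subunits assemble as a ring of 4 around the pore, either as copies of a single subunit or as mixtures of several, and beta subunits attach to the cytoplasmic side. Most Kv1 channels open near the firing threshold of neurons and pass a slowly inactivating outward current that sets the current needed to fire and limits transmitter release at axon terminals. Channels with Kv1.4, or with the beta subunit Kvbeta1, inactivate fast. Loss of Kv1.1 causes epilepsy in mice, and mutations of the human gene cause episodic ataxia.

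The guide decides which member was addressed directly, and its target is shown for that reason. It is written 5′ to 3′ in lower case, and the capitals mark the adjacent PAM that Cas9 requires.

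sg19 target: agtcaatgatcacatcctccTGG

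In the mouse genome NCBIM37 (mm9) the 20 bases matched 1 position exactly, on the plus strand at chr6:126595930-126595949, 111 bp before the start of *Kcna1*. Genes outside the Kv1 family were not looked up at this position. *Kcna1* runs on the minus strand from 126586481 to 126595819 of chromosome 6. It shares this stretch with *Kcna5*, whose gene lies 100.9 kb away, and with *Kcna6*, 62.5 kb away, in the gene models of GENCODE vM1. *Kcna2* and *Kcna3* lie together on chromosome 3, and *Kcnab1* lies apart from them on that chromosome, at lower coordinates. *Kcna4* is on chromosome 2, *Kcnab2* on chromosome 4 and *Kcnab3* on chromosome 11. Promoter windows from 250 bases before to 50 after the transcription start were held by the RefSeq table of GRCm38.p6 for 7 of the 9 members, without *Kcna1* and *Kcnab3*. On either strand of these windows, the closest stretch to sg19 next to an NGG differed from the guide at 9 of 20 bases for *Kcna4* and *Kcnab2*, at 10 for *Kcnab1*, at 11 for *Kcna2* and *Kcna5*, and at 12 for *Kcna3* and *Kcna6*. Among the 27025 genes with such a window, 17.3% held a stretch with 9 or fewer differences, and 97.4% one with 12 or fewer.

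Values are the whole numbers of the deposited files, which summed to between 999047 and 999717 in each library and were taken as CPM-like values, scaled to a common library total and rounded by the authors. How many reads lie behind them is unknown, a value of 1 or 2 is uncertain by the rounding alone, and a listed 0 does not show that a gene was silent. Libraries were made from the 3′ ends of polyA RNA, which gives about 1 fragment for each transcript, but whether the values were also divided by gene length is not stated, so the order of levels between genes is that of the files. In each library, between 15.3% and 20.2% of the total belonged to a single gene, Gm42418, which overlapped between the groups. Of the 19504 genes above 0 in at least 1 library, 226 had an adjusted p under 0.05 by limma on log2(value + 1) with Benjamini-Hochberg adjustment, or 1.16%, and 68, or 0.349%, were higher in Kcna1-dCas9A. These counts were unstable. Leaving out 1 library gave 0 genes in 5 limma fits, with 3332 to 3853 at an unadjusted p under 0.05, and 2711 without Ctrl-dCas9A replicate 3, and median-of-ratios scaling gave 963 higher and 758 lower against 68 and 158. Of the 9 members, 8 were above 0 in at least 1 library and were tested in that fit. 1 of these 8, *Kcna1*, passed the threshold.

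*Kcna1*, which encodes Kv1.1, was the gene the guide was designed to raise. It was listed at 16 in all 3 controls, against 68, 47 and 65 with sg19. The control libraries did not differ at the precision of the files, and every Kcna1-dCas9A library was above every control library. The mean rose from 16.0 to 60.0 ± 11.4 (SD, n = 3), a 3.75-fold ratio of the group means. On the log2(value + 1) scale the fold change was 1.83 ± 0.16 (SE), with a 95% interval from 1.44 to 2.21 and an adjusted p of 0.034 (limma, Benjamini-Hochberg). The direction was the same without each library in turn, with log2 fold changes from 1.73 to 1.99. The limma adjusted p was 0.019 without Ctrl-dCas9A replicate 3, and it was above 0.05 without each of the others. It was then 0.14 without Ctrl-dCas9A replicate 1 and 0.14 without replicate 2, and 0.11, 0.12 and 0.13 without Kcna1-dCas9A replicates 1, 2 and 3. These fits called 0 of all genes. The unadjusted limma p of *Kcna1* in them ran from 9.9e-06 to 0.00035, against 9.6e-06 with all libraries.

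**Figure D1:**
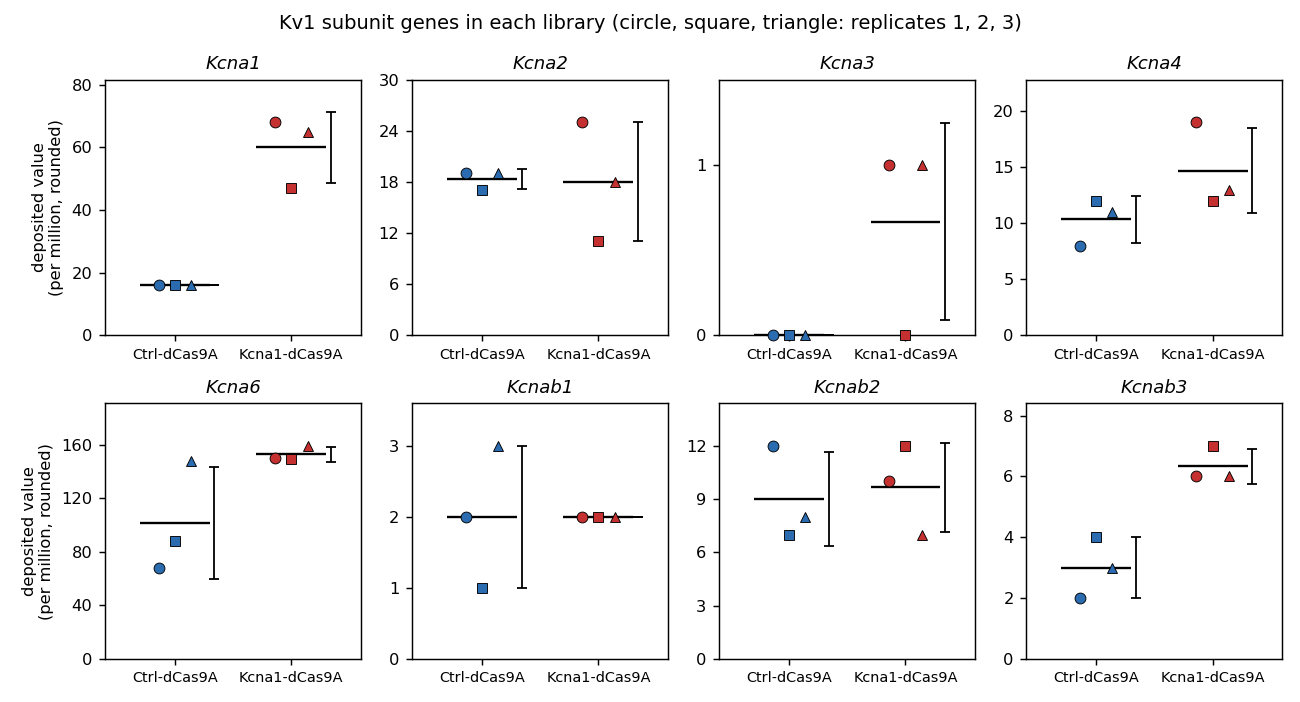
Deposited value (CPM-like, rounded) of the 8 Kv1 subunit genes above 0 in at least 1 library, each panel with its own axis from 0. Points are libraries (circle, square and triangle for replicates 1, 2 and 3), bars are group means and whiskers are the SD of 3 libraries. *Kcna1* separates at 16 against 47 to 68, *Kcna6* nearly touches at 148 against 149, and *Kcna2* overlaps.

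*Kcna6*, which encodes Kv1.6 and is the nearer of the chromosome 6 neighbours, had the highest listed value of the family in all 6 libraries. It was listed at 68, 88 and 148 in the controls and at 150, 149 and 159 with sg19. The Kcna1-dCas9A libraries lay close together, the control libraries were spread over more than their lowest value, and the groups were separated by 1 unit, between Ctrl-dCas9A replicate 3 and Kcna1-dCas9A replicate 2. The means were 101 ± 41.6 and 153 ± 5.5 (SD, n = 3), a 1.51-fold ratio. The log2 fold change of 0.66 ± 0.26 (SE; 95% interval 0.05 to 1.28) did not pass the threshold (adjusted p = 0.18, limma). Without Ctrl-dCas9A replicate 3 the log2 fold change was 0.97 with a limma adjusted p of 0.023, in a fit that called 2711 of all genes against 226, and without Ctrl-dCas9A replicate 1 it was 0.42 with an adjusted p of 0.43. *Kcna6* also passed when the test was limited to the 8050 genes averaging 10 or more (limma adjusted p = 0.026) and with a robust variance (limma adjusted p = 0.0002). Those fits also called far more genes, 2289 of 8050 and 2884 of 19504.

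*Kcna5*, the other neighbour on chromosome 6, was listed at 0 in all 6 libraries. This gene encodes Kv1.5, best known from heart and vascular muscle.

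*Kcna2* encodes Kv1.2, the alpha subunit most often found in a channel with Kv1.1 in axons. It was listed at 19, 17 and 19 in the controls and at 25, 11 and 18 with sg19. The Kcna1-dCas9A values lay on both sides of the controls, with the lowest and the highest value of the 6 in that group. The group means were 18.3 ± 1.2 and 18 ± 7.0 (SD, n = 3). Its log2 fold change was -0.09 ± 0.28 (SE), and its 95% interval, from -0.75 to 0.56, does not reach the change of *Kcna1*.

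*Kcna4* encodes Kv1.4, the fast-inactivating alpha subunit of the family. It was listed at 8, 12 and 11 in the controls and at 19, 12 and 13 with sg19. The groups met at 12, and Kcna1-dCas9A replicate 1 alone was well above the controls. The log2 fold change was 0.46 ± 0.24 (SE; 95% interval -0.10 to 1.02; adjusted p = 0.27, limma). It was 0.27 without Kcna1-dCas9A replicate 1 and 0.30 without Ctrl-dCas9A replicate 1, and between 0.51 and 0.58 without each of the others.

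*Kcna3*, which encodes Kv1.3, is best known from lymphocytes and microglia. It was listed at 0 in the 3 control libraries and at 1, 0 and 1 in Kcna1-dCas9A, which is at the limit of the rounding, and no fold is given. 8 microglial marker genes summed to 25, 22 and 23 in the controls and to 60, 53 and 72 with sg19. The defining microglial genes P2ry12 and Tmem119 were at 0 in all 6 libraries, while C1qa, C1qb, Cx3cr1 and Aif1 were higher in every Kcna1-dCas9A library than in any control, as were 8.98% of all genes, and Csf1r and C1qc overlapped. Of the 6 markers tested, 1 (C1qa) passed the threshold as higher, against 0.349% of all genes, and without it the sums were 16 to 17 against 31 to 48. The part of this difference in the *Kcna3* values was not tested.

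**Figure D2:**
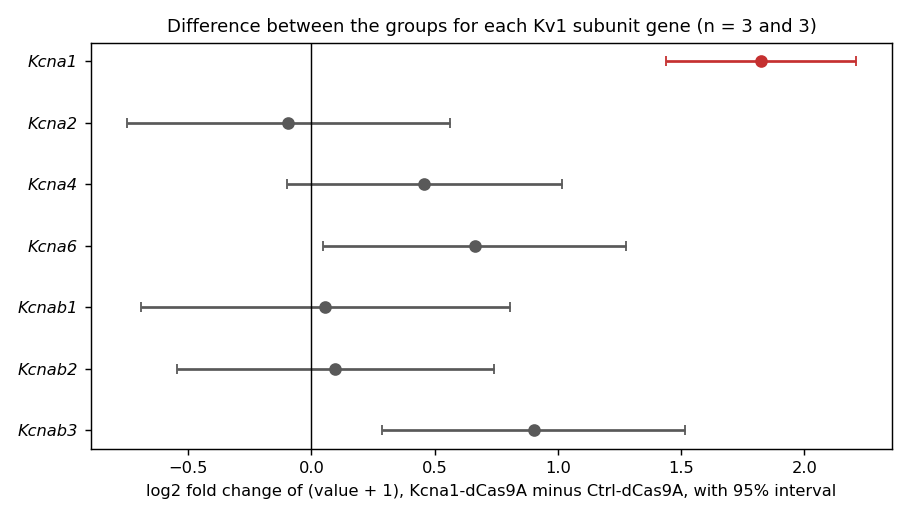
Log2 fold change of (value + 1), Kcna1-dCas9A minus Ctrl-dCas9A, of the 7 Kv1 subunit genes above 0 in the control libraries, with the 95% interval from limma (n = 3 and 3). *Kcna1* (red, the one with an adjusted p under 0.05) lies at 1.83, and the intervals of *Kcna6* and *Kcnab3* lie above 0 without an adjusted p under 0.05.

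The beta subunits are cytoplasmic proteins that alter the inactivation and the surface transport of Kv1 channels. *Kcnab3*, which encodes Kvbeta3, was listed at 2, 4 and 3 in the controls and at 6, 7 and 6 with sg19. The groups did not overlap and were separated by 2 units. The means were 3.0 ± 1.0 and 6.33 ± 0.58 (SD, n = 3), a 2.11-fold ratio of values so low that rounding can move it. The limma log2 fold change was 0.90 ± 0.26 (SE; 95% interval 0.29 to 1.52), with an adjusted p of 0.095 (limma) that did not pass the threshold. It was 0.51 with a pseudocount of 5 and 1.1 with 0.1. The gene Kcnab3os, named as the opposite strand of *Kcnab3*, was listed at 0 in all 6 libraries.

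*Kcnab2*, which encodes Kvbeta2, the main beta subunit of brain Kv1 channels, was listed at 12, 7 and 8 in the controls and at 10, 12 and 7 with sg19. Both groups had the same range. Its log2 fold change was 0.10 ± 0.27 (SE; 95% interval -0.55 to 0.74). *Kcnab1*, which encodes Kvbeta1, the subunit that confers fast inactivation, was listed at 2, 1 and 3 in the controls and at 2 in every library with sg19, too low for a difference to be seen.

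Of the 8 members tested, 3 (*Kcna1*, *Kcna6* and *Kcnab3*) had every Kcna1-dCas9A library above every control library, as had 8.98% of all genes tested. The same 3 had an unadjusted limma p under 0.05, against 23.2% of all genes in either direction. The median log2 fold change of the 7 tested members other than *Kcna1* was 0.46, against -0.02 over all genes tested, and 6 of the 7 were above 0. With so few genes, of which several lie near the rounding limit, these counts describe the list and do not set it apart from other genes.

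**Figure D3:**
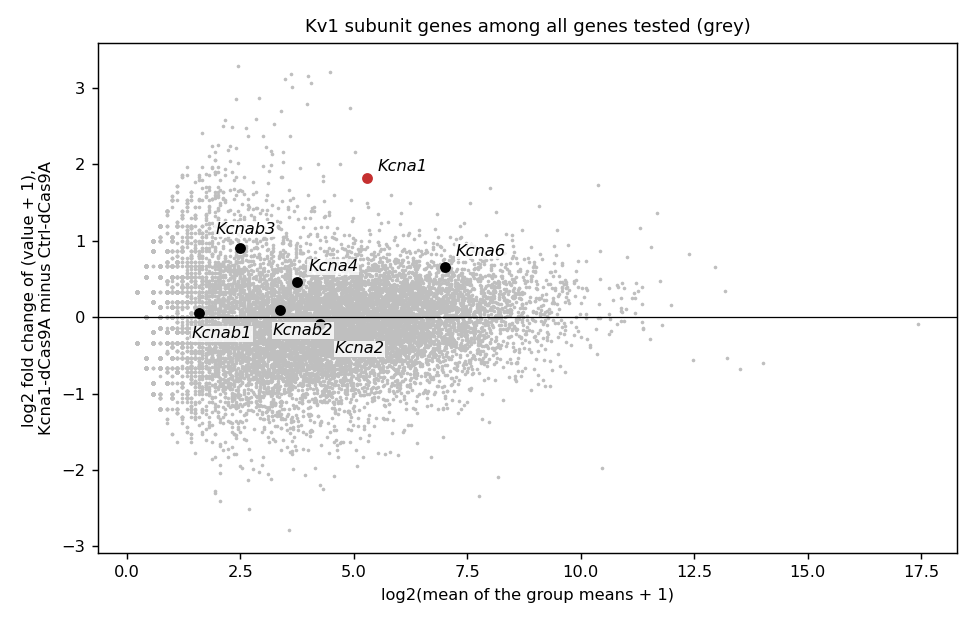
Log2 fold change of (value + 1), Kcna1-dCas9A minus Ctrl-dCas9A, against log2 of the mean of the group means plus 1, for all 19504 genes tested (grey) and the 7 Kv1 subunit genes above 0 in the controls. *Kcna1* (red) lies at 1.83, and the other 6 (black) lie between -0.09 and 0.90.

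Among the members above 0 in the controls, the order by mean changed in 1 respect, the place of *Kcna1*. In Ctrl-dCas9A the mean values ran from *Kcna6* (101) through *Kcna2* (18.3), *Kcna1* (16.0), *Kcna4* (10.3), *Kcnab2* (9.0) and *Kcnab3* (3.0) to *Kcnab1* (2.0), with *Kcna3* and *Kcna5* at 0. Of these neighbours, *Kcna4* and *Kcnab2* overlapped over the 3 libraries, as did *Kcnab3* and *Kcnab1*, and *Kcna1* was between 1 and 3 units below *Kcna2*. In Kcna1-dCas9A, *Kcna1* at 60.0 was second to *Kcna6* at 153 and above *Kcna2* in every library, from which its range was apart. Below it, *Kcna2* overlapped *Kcna4*, *Kcna4* met *Kcnab2* at 12, and *Kcnab2* met *Kcnab3* at 7, while *Kcnab1* was apart from *Kcnab3*.

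Ratios within a library set *Kcna1* against the other alpha subunits in the same bulk RNA, taken over all its cells. They were computed from value + 1, so that low genes still move slightly with the scaling, for the 3 other members with a mean value of at least 10. The log2 ratio of *Kcna1* to *Kcna2* was -0.23, -0.08 and -0.23 in Ctrl-dCas9A and 1.41, 2.0 and 1.80 in Kcna1-dCas9A. *Kcna1* was thus the lower of this pair in each control library and the higher in each Kcna1-dCas9A library. The difference of the means was 1.92 for *Kcna2*, 1.37 for *Kcna4* and 1.16 for *Kcna6*, and with a pseudocount of 5 it was 1.68, 1.26 and 0.98. All 3 ratios were higher in each Kcna1-dCas9A library than in any control library (two-sided exact permutation test, p = 0.1 for each and 0.1 adjusted over the 3, which is the smallest p that 3 libraries against 3 allow). The ratios share the values of *Kcna1* and are not separate results.

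**Figure D4:**
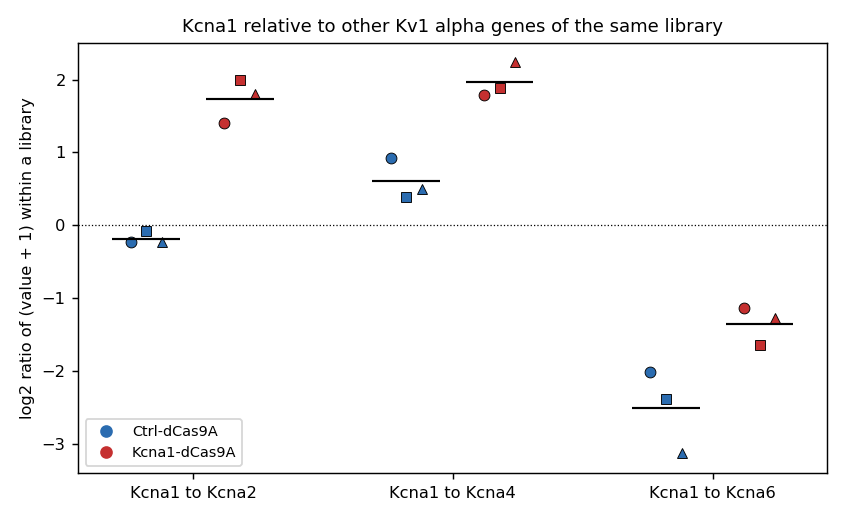
Log2 ratio of (value + 1) of *Kcna1* to *Kcna2*, *Kcna4* and *Kcna6* in the same library. Points are libraries (circle, square and triangle for replicates 1, 2 and 3), bars are group means, and the dotted line marks equal values. In each pair, all 3 Kcna1-dCas9A libraries lie above all 3 Ctrl-dCas9A libraries.

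The values of the 6 alpha subunit genes summed to 111, 133 and 194 in the controls and to 263, 219 and 256 with sg19. Every Kcna1-dCas9A library was above every control library, with a 1.68-fold ratio of the means. Without *Kcna1* the sums were 95, 117 and 178 against 195, 172 and 191, and the groups overlapped at Ctrl-dCas9A replicate 3. *Kcna6* moved these sums most, since it held between 57.0% and 76.3% of the alpha sum in each library. The share of *Kcna1* was 14.4%, 12% and 8.25% in Ctrl-dCas9A and 25.9%, 21.5% and 25.4% in Kcna1-dCas9A, 12.7 percentage points higher on average. The share of *Kcna2* was 13.2% ± 3.7 in Ctrl-dCas9A and 7.19% ± 2.2 in Kcna1-dCas9A (SD, n = 3), lower in every Kcna1-dCas9A library although its own value overlapped. The 3 beta subunit genes summed to 16, 12 and 14 and to 18, 21 and 15, which overlapped.

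**Figure D5:**
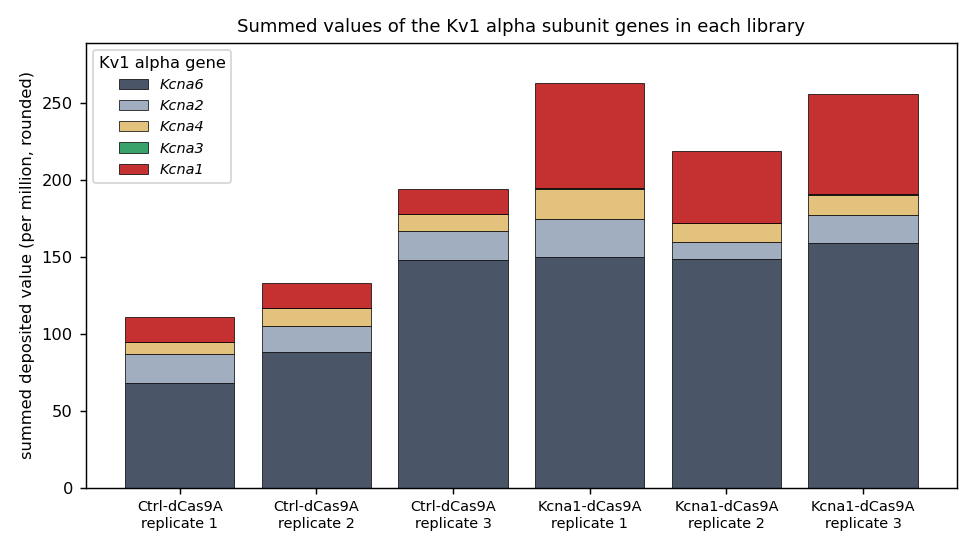
Summed deposited values (CPM-like, rounded) of the Kv1 alpha subunit genes in each library, stacked by gene, with *Kcna5* at 0 throughout. *Kcna6* is the largest part of every bar, and *Kcna1* grows from 16 in each Ctrl-dCas9A bar to between 47 and 68 in the Kcna1-dCas9A bars.

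The Kv1 alpha genes outside the list were close to 0. *Kcna7* was at 1 in 1 library of each group and at 0 in the others, and *Kcna10* was at 0 in all 6.

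Kv1 channels are held at axons and synapses by partner proteins, of which 12 genes were examined. None passed an adjusted p under 0.05 (limma), 5 had an unadjusted p under 0.05 (23.2% of all genes), and their median log2 fold change was -0.10. The 2 largest changes in size were those of *Adam11* (1.1 ± 0.32, SE; adjusted p = 0.097, limma), which places Kv1 channels at cerebellar basket cell terminals, and *Cntn2* (0.86 ± 0.25, SE; adjusted p = 0.096, limma), the cell adhesion molecule that gathers Kv1 channels beside the nodes of Ranvier. *Adam11* was listed at 32, 39 and 69 in the controls and at 94, 72 and 131 with sg19, and *Cntn2* at 698, 895 and 1392 and at 1871, 1459 and 1924. For both, as for *Kcna6*, Ctrl-dCas9A replicate 3 was the control library nearest to the Kcna1-dCas9A libraries, and the groups did not overlap (8.98% of all genes, higher). Another 3 partners were lower in every Kcna1-dCas9A library than in any control, as were 13.3% of all genes, and are named because their values were seen. *Adam22*, a receptor of Lgi1, was listed at 29, 26 and 29 in the controls and at 19, 19 and 13 with sg19 (log2 fold change -0.71; adjusted p = 0.071, limma). *Dlg4*, the scaffold PSD-95, had 338, 374 and 276 and then 198, 217 and 227 (-0.61; adjusted p = 0.056, limma). *Dlg1*, the related scaffold SAP97, had 24, 18 and 15 and then 12, 11 and 11 (-0.67; adjusted p = 0.098, limma). These 3 did not pass the threshold either. *Lgi1*, a secreted ligand that slows Kv1 inactivation, was listed at 36, 47 and 40 and at 36, 44 and 42, with a log2 fold change of -0.01 ± 0.14 (SE).

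In other voltage-gated potassium channel families, none of 6 Kv2 and Kv3 genes and none of 9 Kv4 genes, auxiliary subunits included, passed the limma threshold, and 1 and 2 of them had an unadjusted p under 0.05, against 23.2% of all genes. Their median log2 fold changes were 0.22 and -0.19, with ranges from -0.82 (*Kcnc2*) to 0.80 (*Kcnc4*) and from -0.84 (*Dpp10*) to 0.66 (*Dpp6*). The 1.83 of *Kcna1* was above all 15.

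In these bulk libraries, fewer cells of a type and less RNA per cell cannot be told apart. The 6 general neuron markers were above 0 in every library and summed to between 5923 and 6761 in Ctrl-dCas9A and between 6910 and 8273 in Kcna1-dCas9A, a difference carried by Tubb3, a tubulin of neurons. Tubb3 was listed at 1862, 1752 and 2605 in the controls and at 3855, 3221 and 4591 with sg19. Without it the sums ran from 4061 to 4202 in the controls and from 3682 to 3925 with sg19, the opposite order. The sums of 5 excitatory and 6 inhibitory markers overlapped between the groups, but single markers separated in both directions. Of the excitatory markers, Slc17a7 and Camk2a were higher in every Kcna1-dCas9A library than in any control, and Neurod6 was lower. Of the inhibitory markers, Npy was higher, and Gad1 and Slc32a1 were lower. None of these passed the threshold. Over all genes, 8.98% were higher without overlap and 13.3% lower. 8 astrocyte markers, of which 3 (Aqp4, Aldoc and Sox9) passed the threshold as lower, against 0.81% of all genes, summed to between 692 and 825 in Ctrl-dCas9A and between 491 and 509 in Kcna1-dCas9A. In the same order, 5 markers of dividing cells summed to between 87 and 97 against 57 and 61, and 7 markers of the oligodendrocyte lineage, with Mog at 0 throughout, to between 64 and 96 against 40 and 43. The astrocyte, dividing cell and oligodendrocyte sums stayed lower without Slc1a3, Top2a and Olig1, the genes that differed most between the group means. In the last list Olig2 passed as lower, and Mbp was higher in every Kcna1-dCas9A library. The part of these differences in the values of *Kcna6* and *Kcnab3* was not tested. Markers of both named regions were above 0 in all 6 libraries, 4 of hippocampus, whose sums overlapped between the groups, and 5 of neocortex, whose sums were between 337 and 416 against 268 and 307. Bcl11b carried that separation, and without it the neocortex sums overlapped, at 113 to 127 against 106 to 116. Zbtb20 made up most of each hippocampus sum, at 1359, 1441 and 1358 in the controls and 1516, 1250 and 1378 with sg19. Prox1, another hippocampus marker, was listed at 146, 160 and 107 against 89, 101 and 75. It was lower in every Kcna1-dCas9A library, as were 13.3% of all genes, and did not pass the threshold.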

How the data were processed

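The files deposited by the authors list 1 whole number per gene and library, here treated as a score, a per-million value rounded by the authors, because the totals are nearly equal. Libraries were QuantSeq 3′. The study's methods name Bowtie2 and NCBI37/mm9 for these libraries, whereas the submitters' processing notes name STAR 2.7, featureCounts, DESeq2 and mm10. The methods give STAR and mm10 to the in vivo libraries. The annotation and the scaling are not given in the sources used here. DESeq2 and edgeR were not run, since they need counts.

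All 6 libraries were fitted with limma 3.58.1 in R 4.3.3 (lmFit, eBayes with an intensity trend) on log2(value + 1), with group as the only factor, over the 19504 genes above 0 in at least 1 library, two-sided, with Benjamini-Hochberg adjustment and a threshold of 0.05. Fold changes on this scale understate changes at low values. The members, gene lists and tests were chosen with earlier results of these data known. Named were all 9 members, and of each other channel or partner list the genes past the threshold, or else the 2 with the largest absolute fold change. *Lgi1*, *Adam22*, *Dlg4*, *Dlg1* and the single markers were named after their values were seen. The marker sums without 1 gene (Tubb3, Bcl11b, C1qa, Slc1a3, Top2a or Olig1) were added then. Figures were drawn with matplotlib 3.10.9.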

Additional observations from a re-analysis of the deposited data

How the results depend on the processing

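*Kcna1* stayed higher in Kcna1-dCas9A under all 16 alternatives, with log2 fold changes from 1.61 to 1.99, and from 1.73 to 1.99 with a library left out. Its limma adjusted p was above 0.05 with the replicate number as a block (log2 fold change 1.83, adjusted p = 0.11) and in 5 of the 6 fits that left out 1 library. The number of members past the threshold, 1, was 0 with the replicate block, from 0 to 2 with a library left out, and 2 (*Kcna1* and *Kcna6*) with a mean value of at least 10 or with a robust variance, and the cause was not tested. Same-numbered libraries deviated together with correlations of 0.01, 0.11 and 0.15 over 8050 genes, and Ctrl-dCas9A replicate 1 correlated best with another number (0.10), so that the numbers were not read as pairs.

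The number of all genes past the threshold, 226, was 627 with a pseudocount of 0.1, 475 with 5, 1543 and 2289 with a mean value of at least 1 and 10, 1721 with median-of-ratios factors (963 higher, 758 lower, against 68 and 158), 868 with upper-quartile factors, 1808 without Gm42418, 2884 with a robust variance, 0 with the replicate block (4326 at an unadjusted p under 0.05, limma) and from 0 to 2711 with a library left out. Without the intensity trend the number was 201, with 117 higher and 84 lower.

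*Kcna3*, *Kcna4*, *Kcna6* and *Kcnab3* kept their direction wherever they were tested. *Kcna2* turned to 0.018 with upper-quartile factors and ran from -0.35 to 0.20 with a library left out, *Kcnab1* from -0.21 to 0.29 and *Kcnab2* from -0.060 to 0.30. The within-library ratios and the share of *Kcna1* kept their direction under every alternative tried. The unknown depth and the rounding limit the genes listed under about 10.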

Other observations

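The 3 genes whose log2 values followed *Kcna1* most closely over the 6 libraries, among 8049 others with a mean value of at least 10, were Tmem259 (Pearson r = 0.998, Spearman 0.893), Polr3d (0.995 and 0.941) and Mertk (0.994 and 0.935). Tmem259 was listed at 29, 29 and 30 in the controls and at 50, 45 and 51 with sg19, with a log2 fold change of 0.71 that passed the threshold narrowly (adjusted p = 0.0496, limma). Mertk, a receptor kinase of phagocytic cells, was listed at 8 in all 3 controls and at 13, 12 and 14 with sg19. A log2 fold change of 0.63 did not pass the threshold (adjusted p = 0.069, limma). Of the 8049 genes, 106 had an r above 0.95. Among the members, r with *Kcna1* was 0.74 for *Kcna4* (Spearman 0.893), 0.70 for *Kcna6* (0.880) and 0.03 for *Kcna2* (0.216), the points sharing the group difference and the library totals.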
